A study of Mus musculus with 27 samples.

Results

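The 10 genes described here, Gldc, Amt, Shmt1, Shmt2, Mthfd1, Mat1a, Gnmt, Ahcy, Bhmt and Cbs, encode enzymes of one-carbon, glycine and methionine metabolism. They were taken by name from the 41388 gene identifiers in the count data, and all 10 were among the 15121 genes with enough counts to be tested. Their messenger RNA was measured by sequencing in 27 whole livers of ovariectomized female C57BL/6 mice with an age label of 120 days. The mice were gavaged with sesame oil vehicle or with 2,3,7,8-tetrachlorodibenzo-p-dioxin (TCDD), a persistent activator of the aryl hydrocarbon receptor, every 4 days for 92 days. There were 9 groups of 3 biological replicates: the vehicle, TCDD at 0.01, 0.03 and 0.1 µg/kg, TCDD at 0.3, 1 and 3 µg/kg, and TCDD at 10 and 30 µg/kg. The treatment label also calls the gavage daily. Every group, vehicle included, was ovariectomized, so the values describe females without ovaries.

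One-carbon metabolism moves single carbon units between serine, glycine, tetrahydrofolate and methionine. In the liver the glycine cleavage system and the serine hydroxymethyltransferases load folate with carbon units. The methionine cycle activates methionine to S-adenosylmethionine (SAM), the methyl donor of the cell, and regenerates methionine from homocysteine, which can also leave the cycle towards cysteine. Hepatocytes are the main site of these reactions and express several of the enzymes at high levels.

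The libraries held between 434011 and 30873586 counts on genes, with a median of 19999504. The second 0.3 µg/kg liver had 434011 counts, and each of the other 26 had at least 11050391. Cyp1a1, the classical target of the receptor, averaged 7201 ± 652 CPM (counts scaled to a library total of 1000000) at 30 µg/kg and 3.12 ± 0.605 CPM in vehicle livers (SD, n = 3 each), and all 6 exposure genes examined were higher than vehicle at 1 µg/kg and above. The libraries carry 24 distinct index sequences. The 12 libraries of vehicle, 0.01, 0.03 and 0.1 µg/kg carry an index each, called the first set here, and the 12 of 0.3, 1, 3 and 10 µg/kg another index each, the second set, while the livers of 30 µg/kg carry the same 3 indices as the vehicle livers. Whether the sets mark sequencing batches is not stated. In comparisons of 0.3 to 10 µg/kg with vehicle, dose and index set cannot be told apart. In the comparison of 30 µg/kg with vehicle both groups carry the same 3 indices. These indices alone could not separate the 2 groups within 1 sequencing pool. Whether the groups shared a sequencing run or a preparation batch is not stated. Whether a batch difference has a part in that comparison was not tested. All 8 hepatocyte markers examined were detected in every group.

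Positions are on GRCm38. Gldc (ENSMUSG00000024827, chr19:30098447-30175429, minus strand) encodes the glycine decarboxylase of the glycine cleavage system, and Amt (ENSMUSG00000032607, chr9:108296853-108302302, plus strand) its aminomethyltransferase. Shmt1 (ENSMUSG00000020534, chr11:60788104-60811718, minus strand) and Shmt2 (ENSMUSG00000025403, chr10:127517123-127522444, minus strand) encode the cytosolic and the mitochondrial serine hydroxymethyltransferase. Mthfd1 (ENSMUSG00000021048, chr12:76255298-76319803, plus strand) encodes the cytosolic enzyme that interconverts folate-bound carbon units. Mat1a (ENSMUSG00000037798, chr14:41105035-41124412, plus strand) encodes the liver form of methionine adenosyltransferase, which makes SAM. Gnmt (ENSMUSG00000002769, chr17:46725664-46729168, minus strand) encodes glycine N-methyltransferase, which uses up SAM by methylating glycine. Ahcy (ENSMUSG00000027597, chr2:155059310-155074497, minus strand) encodes the hydrolase of S-adenosylhomocysteine. Bhmt (ENSMUSG00000074768, chr13:93616675-93637961, minus strand) encodes the enzyme that remethylates homocysteine with betaine. Cbs (ENSMUSG00000024039, chr17:31608894-31637238, minus strand) encodes cystathionine beta-synthase, which commits homocysteine to cysteine synthesis. All 10 are protein-coding, and the values are reads counted over their exons.

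Promoter windows of 300 bases, 250 before and 50 after the annotated start, were found for 9 of the 10 genes in the RefSeq table of GRCm38.p6, the exception being Mat1a. The letters GCGTG, the core of the motif bound by the aryl hydrocarbon receptor, were searched on both strands. They occurred in 6 of the 9 windows, against 32.4% of the 32851 windows in the table, and a match is a description of letters, not of binding. Gnmt held 3 matches, a number reached or passed by 3.8% of all windows. Amt, Shmt1, Shmt2, Ahcy and Mthfd1 held 1 each. Gldc, Bhmt and Cbs held none in this window. The windows of 3 genes are printed 5′ to 3′ on the gene's strand, chosen after the expression values were seen: Gldc (chr19:30175392-30175691, minus strand), the gene lowered at the smallest dose, Gnmt (chr17:46729116-46729415, minus strand), with the most matches, and Shmt2 (chr10:127522395-127522694, minus strand), the gene with the smallest change. Capitals mark GCGTG or its reverse complement.
Gldc: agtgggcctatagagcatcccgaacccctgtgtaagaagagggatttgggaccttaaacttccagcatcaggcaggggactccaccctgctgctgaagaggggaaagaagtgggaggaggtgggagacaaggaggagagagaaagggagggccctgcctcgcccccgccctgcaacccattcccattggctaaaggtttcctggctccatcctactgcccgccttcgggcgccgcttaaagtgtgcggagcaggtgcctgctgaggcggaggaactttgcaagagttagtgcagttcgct
Gnmt: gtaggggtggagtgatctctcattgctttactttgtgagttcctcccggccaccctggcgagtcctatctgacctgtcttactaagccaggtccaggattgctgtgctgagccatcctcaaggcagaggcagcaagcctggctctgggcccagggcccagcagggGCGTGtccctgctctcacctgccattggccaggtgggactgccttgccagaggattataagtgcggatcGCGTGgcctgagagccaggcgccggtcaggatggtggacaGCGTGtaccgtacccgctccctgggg
Shmt2: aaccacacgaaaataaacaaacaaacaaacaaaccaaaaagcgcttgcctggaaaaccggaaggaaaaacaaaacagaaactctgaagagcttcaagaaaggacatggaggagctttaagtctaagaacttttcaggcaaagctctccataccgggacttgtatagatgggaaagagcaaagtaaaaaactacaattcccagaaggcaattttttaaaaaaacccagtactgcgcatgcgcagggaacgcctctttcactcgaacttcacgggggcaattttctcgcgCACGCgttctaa

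All 10 genes were lower than vehicle at 30 µg/kg, none was higher at any dose, and they differed in the dose at which they fell. Gldc fell from 0.3 µg/kg, and Amt and Bhmt from 1 µg/kg. Shmt1, Mat1a, Cbs and Mthfd1 fell at 10 and 30 µg/kg, Cbs also at 1 µg/kg, and Gnmt, Ahcy and Shmt2 at 30 µg/kg. Log2 fold changes at 30 µg/kg ran from −2.70 for Bhmt to −0.57 for Shmt2. A gene was called changed at a Benjamini-Hochberg adjusted p below 0.05 over all genes tested, from edgeR's quasi-likelihood test of each dose against vehicle. The 8 comparisons share the 3 vehicle livers and are therefore not independent of each other.

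No member was called by edgeR's test at 0.01, 0.03 or 0.1 µg/kg, where 0%, 0.00661% and 0.0463% of all genes were called lower. DESeq2 called none either, where it called 0.0333%, 0.0209% and 0.17% of all genes lower at these doses. At an unadjusted p below 0.05, there were 1, 0 and 1 members at those doses, against 4.79%, 3.13% and 5.07% of all genes. At 0.3 µg/kg 1 of 10 was lower, against 0.562% of all genes. At 1 µg/kg 4 of 10 were lower, against 8.21% of all genes, and at 3 µg/kg 3 of 10, against 4.89%. At 10 µg/kg 7 of 10 were lower, against 11.2% of all genes, and at 30 µg/kg 10 of 10, against 19.4%. The median log2 fold change of the 10 genes was −0.62 at 1, −0.39 at 3, −0.95 at 10 and −1.81 at 30 µg/kg, while the median over all genes tested was −0.00, −0.03, −0.03 and −0.01 at these doses.

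A simpler description counts the members with all 3 TCDD livers below all 3 vehicle livers. From the lowest dose to 0.3 µg/kg there were 1, 1, 2 and 2 such members, against 4.27%, 6.14%, 8.56% and 11.1% of all genes. The number was 7 at 1 µg/kg, against 18.6% of all genes, 6 at 3 µg/kg, against 17.5%, 8 at 10 µg/kg, against 23.2%, and 10 at 30 µg/kg, against 25.9%.

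**Figure D1:**
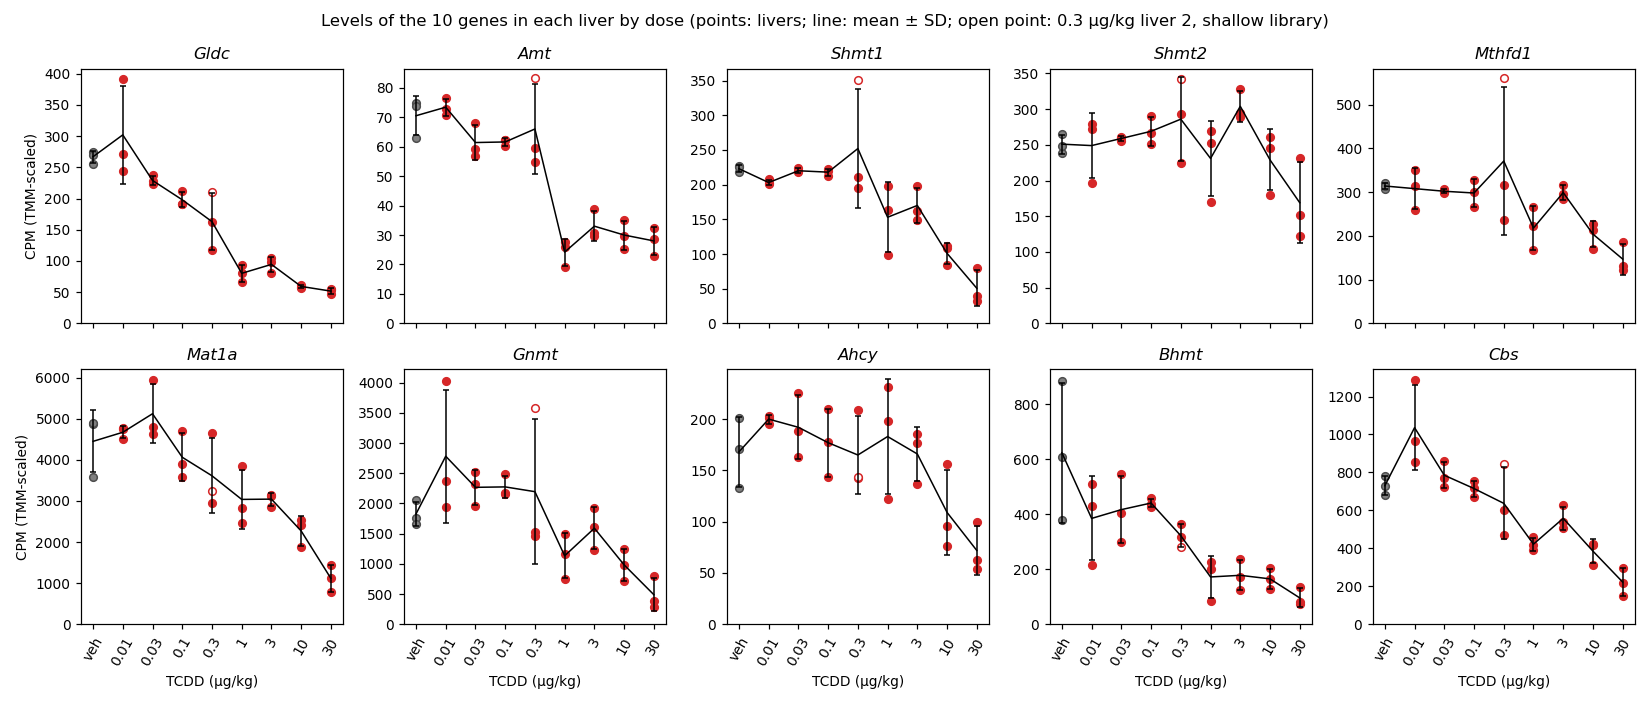
Level of each gene in CPM (vertical axes, linear, from 0) in each liver against the TCDD dose in µg/kg (horizontal axis), for vehicle and 8 doses with 3 livers each. Points are livers, lines join group means, bars are SD, and the open point is the 0.3 µg/kg liver with 434011 counts. Gldc, Amt and Bhmt are low from 1 µg/kg onwards. At 30 µg/kg all 3 livers are below vehicle for Ahcy and for Shmt2, the second liver only just for Shmt2.

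Gldc, the decarboxylase of the glycine cleavage system, was the member lowered at the smallest dose. It measured 274, 256 and 270 CPM in vehicle livers, 80.4, 94.1 and 65.9 CPM in livers of 1 µg/kg, 57.4, 58.1 and 62.1 CPM in those of 10 µg/kg, and 46.3, 54.8 and 53.9 CPM in those of 30 µg/kg. The TCDD livers lay below every vehicle liver at each dose from 0.03 µg/kg up. The mean was 86% of the vehicle mean at 0.03, 74.3% at 0.1, 61.1% at 0.3 and 19.4% at 30 µg/kg. By edgeR's quasi-likelihood test the log2 fold change was −0.76 ± 0.19 (SE, adjusted p = 0.0365) at 0.3 and −2.37 ± 0.19 (adjusted p = 4.39e-10) at 30 µg/kg. The call at 0.3 µg/kg was lost with RLE scaling, when its 6 libraries were fitted by themselves, and without any 1 of the vehicle livers or without the first or the third 0.3 µg/kg liver, with adjusted p from 0.0058 to 0.355 over 12 alternatives. At 0.01 µg/kg the livers measured 271, 391 and 244 CPM and overlapped vehicle.

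Amt, the partner of Gldc that passes the carbon unit to folate, stepped down between 0.3 and 1 µg/kg and stayed there. It measured 19, 27.7 and 26 CPM at 1 µg/kg and 32.4, 28.6 and 22.9 CPM at 30 µg/kg, against 63, 74.9 and 73.7 CPM in vehicle livers. No liver from 1 µg/kg up reached the lowest vehicle liver. At 0.3 µg/kg the livers measured 59.7, 83.3 and 54.9 CPM and overlapped vehicle, the highest value coming from the library of 434011 counts. The log2 fold change was −1.54 ± 0.16 at 1 µg/kg (edgeR, adjusted p = 4.54e-07) and −1.33 ± 0.16 at 30 µg/kg (edgeR, adjusted p = 5.74e-07), so the mean stood at 34.4% of vehicle at 1 µg/kg and at 39.7% at 30 µg/kg.

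The other components of the glycine cleavage system moved less. Gcsh, the lipoyl carrier protein, averaged 47.5 ± 8.99 CPM at 30 µg/kg and 63.3 ± 5.11 CPM in vehicle livers, a log2 fold change of −0.41 (edgeR, adjusted p = 0.0436). That call was lost in 10 of 12 alternatives, with adjusted p up to 0.268. Dld, the dihydrolipoamide dehydrogenase that several mitochondrial complexes share, averaged 131 ± 17.1 CPM at 30 µg/kg and 113 ± 13.9 CPM in vehicle livers and was not called (log2 fold change 0.21 ± 0.18, edgeR adjusted p = 0.363). Within livers, the ratio of Gldc to Gcsh in CPM per kilobase was 0.255, 0.25 and 0.36 at 30 µg/kg, against 1.23, 0.979 and 1.09 in vehicle livers. The ratio of Amt to Gcsh was 0.385 ± 0.0596 at 30 µg/kg and 0.721 ± 0.0173 in vehicle livers (SD, n = 3 each). Both ratios were separate from vehicle at 30 µg/kg. A stretch of 17.5% of the Gcsh transcript matched another annotated gene at 95% identity or more.

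Shmt1 and Shmt2, the enzymes of serine and glycine interconversion in different compartments, parted at the higher doses. Shmt1 measured 39.2, 80.1 and 32.6 CPM at 30 µg/kg and 112, 108 and 84.6 CPM at 10 µg/kg, against 218, 227 and 225 CPM in vehicle livers. At both doses every liver was below every vehicle liver. The log2 fold change of Shmt1 was −1.14 ± 0.26 at 10 µg/kg (edgeR, adjusted p = 0.0021) and −2.14 ± 0.26 at 30 µg/kg (edgeR, adjusted p = 7.17e-07).

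Shmt2 measured 152, 232 and 122 CPM at 30 µg/kg, against 265, 239 and 249 CPM in vehicle livers. The second 30 µg/kg liver lay just under the lowest vehicle liver. Its log2 fold change was −0.57 ± 0.21 at 30 µg/kg (edgeR, adjusted p = 0.0323), the smallest of the 10. The call was lost in 8 of 12 alternatives, among them DESeq2 and RLE scaling, with adjusted p up to 0.227. At 3 µg/kg its livers measured 294, 289 and 328 CPM, all above the vehicle livers, without passing the test (log2 fold change 0.27 ± 0.21, edgeR adjusted p = 0.472).

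The ratio of Shmt1 to Shmt2 in CPM per kilobase was 0.658, 0.762 and 0.722 in vehicle livers, 0.462, 0.628 and 0.487 at 1 µg/kg, 0.405, 0.449 and 0.483 at 3 µg/kg, 0.342, 0.355 and 0.376 at 10 µg/kg, and 0.206, 0.276 and 0.215 at 30 µg/kg. From 1 µg/kg up the ratio was below vehicle in every liver. With 3 livers against 3, an exact permutation test cannot give a two-sided p below 0.10, and no p is given for ratios.

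Mthfd1, which interconverts folate-bound carbon units in the cytosol, was called at 10 and 30 µg/kg. It measured 132, 187 and 122 CPM at 30 µg/kg, against 321, 307 and 315 CPM in vehicle livers, with no overlap, and the log2 fold change was −1.10 ± 0.22 at 30 µg/kg (edgeR, adjusted p = 0.0004). At 10 µg/kg it was −0.63 ± 0.22 (edgeR, adjusted p = 0.0435), and 9 of 12 alternatives lost that call, with adjusted p up to 0.223. The mean stood at 69.3% of vehicle at 1 µg/kg, 95.1% at 3 µg/kg and 46.7% at 30 µg/kg.

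The mitochondrial counterparts of Mthfd1 went the other way at 30 µg/kg. Mthfd2 averaged 2.58 ± 0.206 CPM at 30 µg/kg and 0.68 ± 0.0828 CPM in vehicle livers (SD, n = 3 each), a log2 fold change of 1.92 ± 0.44 (edgeR, adjusted p = 0.0013). Mthfd1l measured 1.09, 1.11 and 1.12 CPM at 30 µg/kg, against 0.56, 0.575 and 0.441 CPM in vehicle livers. It was higher at 1, 3, 10 and 30 µg/kg, most at 1 µg/kg (log2 fold change 1.96 ± 0.42, edgeR adjusted p = 0.0016). Its call at 30 µg/kg (edgeR, adjusted p = 0.049) was lost in 9 of 12 alternatives. Both genes stayed at low levels, at or below 3.51 CPM in the livers of 1 to 30 µg/kg.

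Mat1a, which makes SAM in hepatocytes, declined over a wide range of doses. It measured 775, 1438 and 1134 CPM at 30 µg/kg and 2407, 2535 and 1868 CPM at 10 µg/kg, against 3580, 4882 and 4892 CPM in vehicle livers. The livers of 3, 10 and 30 µg/kg were all below the vehicle livers. The log2 fold change was −0.55 ± 0.22 at 3 µg/kg (edgeR, adjusted p = 0.128), −0.97 ± 0.22 at 10 µg/kg (edgeR, adjusted p = 0.00245) and −2.00 ± 0.23 at 30 µg/kg (edgeR, adjusted p = 2.24e-07).

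Mat2a, the methionine adenosyltransferase that is best known from other tissues, measured 49.6, 49.7 and 68.1 CPM at 30 µg/kg, against 57.2, 52.8 and 52.6 CPM in vehicle livers, and the groups overlapped (log2 fold change 0.04 ± 0.18, edgeR adjusted p = 0.88). Its regulatory partner Mat2b was not called at 30 µg/kg (0.14 ± 0.11, edgeR adjusted p = 0.353) and was higher at 3 µg/kg (0.36 ± 0.12, edgeR adjusted p = 0.0479) and 10 µg/kg (0.34 ± 0.11, edgeR adjusted p = 0.0356). The ratio of Mat1a to Mat2a in CPM per kilobase was 20.2, 37.4 and 21.5 at 30 µg/kg, against 81, 120 and 120 in vehicle livers. Mat1a thus stayed the more abundant transcript per length in all 27 livers, by a ratio of at least 20.2. For Mat2a, 34.3% of the transcript matched another annotated gene and 11.3% of its exonic bases lay opposite another gene, and the strand setting of the counting is not given in the sources used here.

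**Figure D2:**
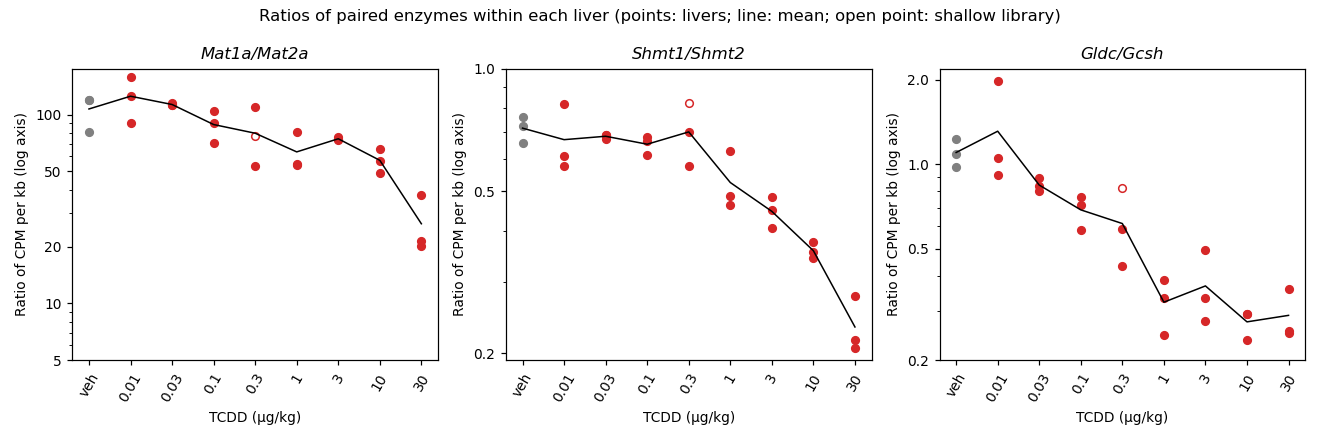
Ratio of CPM per kilobase of exon (vertical axes, log scale) within each liver for Mat1a over Mat2a, Shmt1 over Shmt2 and Gldc over Gcsh, against the TCDD dose in µg/kg. Points are the 3 livers of a group, lines join group means, and the open point is the 0.3 µg/kg liver with 434011 counts. At 30 µg/kg the Mat1a to Mat2a ratio averaged 26.4, against 107 in vehicle livers.

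Gnmt, which consumes SAM, was called at 30 µg/kg alone among the doses. It measured 381, 803 and 284 CPM at 30 µg/kg, against 2057, 1757 and 1663 CPM in vehicle livers, with no overlap, and its log2 fold change was −1.90 ± 0.37 (edgeR, adjusted p = 0.000261). At 10 µg/kg the livers measured 982, 1245 and 721 CPM and also lay below vehicle, yet the change of −0.89 ± 0.36 was not called (edgeR, adjusted p = 0.076). That value was called when the 6 libraries were fitted by themselves and with a replicate block. At 0.01 µg/kg the second liver stood at 4029 CPM beside 1949 and 2369 CPM in the others.

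Gnmt and Mat1a changed by similar amounts at 30 µg/kg. The ratio of Gnmt to Mat1a per kilobase was 1.42, 1.61 and 0.719 at 30 µg/kg, against 1.65, 1.04 and 0.978 in vehicle livers. The ranges overlapped.

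Ahcy, which removes S-adenosylhomocysteine, measured 54, 99.4 and 62.3 CPM at 30 µg/kg, against 133, 171 and 201 CPM in vehicle livers. The groups did not overlap, and the log2 fold change was −1.23 ± 0.26 (edgeR, adjusted p = 0.000709). At all lower doses its livers overlapped vehicle and it was not called.

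Of the Ahcy transcript, 81.9% matched the predicted gene Gm4737 and 51.1% matched Gm9826 at 95% identity or more. Gm4737 had 112992 counts over the 27 libraries, against 88564 for Ahcy. Reads that match both can be split between them or left uncounted. The level of Ahcy alone is therefore uncertain, and a sum with its copies need not hold all shared reads. These copies were examined after the values were seen. Gm4737 fell too, with 48.1, 103 and 60.8 CPM at 30 µg/kg, against 288, 209 and 230 CPM in vehicle livers (log2 fold change −1.78 ± 0.32, edgeR adjusted p = 0.000122). The sum of Ahcy and both copies averaged 146 ± 54.3 CPM at 30 µg/kg and 423 ± 26.6 CPM in vehicle livers, a log2 ratio of −1.53. The paralogs Ahcyl1 and Ahcyl2 had log2 fold changes of −0.48 ± 0.12 (edgeR, adjusted p = 0.00382) for Ahcyl1 and −0.35 ± 0.14 (edgeR, adjusted p = 0.0596) for Ahcyl2 at 30 µg/kg.

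Bhmt, which returns homocysteine to methionine with betaine as the methyl donor, had the largest fold change of the 10 at 30 µg/kg. Its values were 378, 886 and 607 CPM in vehicle livers, 86.2, 228 and 201 CPM in livers of 1 µg/kg, 164, 203 and 129 CPM in those of 10 µg/kg, and 71.8, 136 and 80 CPM in those of 30 µg/kg. From 0.3 µg/kg up every TCDD liver was below every vehicle liver. The log2 fold change was −1.86 ± 0.37 at 1 µg/kg (edgeR, adjusted p = 0.00118) and −2.70 ± 0.38 at 30 µg/kg (edgeR, adjusted p = 7.85e-06). At 0.3 µg/kg the value was −0.94 ± 0.37 (edgeR, adjusted p = 0.332).

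Bhmt shares 75.1% of its transcript with the predicted gene Gm5096, which had 66144 counts over the 27 libraries, against 175344 for Bhmt. Here too, reads that match both can be split or left uncounted. Gm5096 fell as well, by 3.06 on the log2 scale at 30 µg/kg (edgeR, adjusted p = 2.66e-05). The sum of both averaged 125 ± 47.2 CPM at 30 µg/kg and 869 ± 250 CPM in vehicle livers, a log2 ratio of −2.79. Among the 8 members other than Ahcy and Bhmt, at most 7.77% of a transcript had such a match.

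The neighbouring routes of homocysteine remethylation held closer to vehicle at 30 µg/kg. Bhmt2, a related methyltransferase, averaged 173 ± 39.9 CPM at 30 µg/kg and 233 ± 20 CPM in vehicle livers, and the groups overlapped. Its call (log2 fold change −0.43 ± 0.17, edgeR adjusted p = 0.0496) was lost in 10 of 12 alternatives. Mtr, the folate-dependent methionine synthase, was not called (−0.27 ± 0.19, edgeR adjusted p = 0.274).

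Cbs, the entry to cysteine synthesis, measured 151, 296 and 218 CPM at 30 µg/kg and 423, 420 and 313 CPM at 10 µg/kg, against 783, 680 and 728 CPM in vehicle livers. Every liver at 1, 3, 10 and 30 µg/kg was below the vehicle livers. Relative to vehicle, the log2 fold change was −0.79 ± 0.21 at 1 µg/kg (edgeR, adjusted p = 0.0104), −0.39 ± 0.21 at 3 µg/kg (edgeR, adjusted p = 0.288), −0.92 ± 0.21 at 10 µg/kg (edgeR, adjusted p = 0.0027) and −1.72 ± 0.22 at 30 µg/kg (edgeR, adjusted p = 1.03e-06). Without the third 1 µg/kg liver the call at 1 µg/kg was lost, with an adjusted p of 0.0511. At 0.01 µg/kg its livers measured 854, 1286 and 968 CPM, all above vehicle, and it was not called (0.50 ± 0.21, edgeR adjusted p = 0.993).

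Cth, which follows Cbs on the way to cysteine, averaged 285 ± 61.7 CPM at 30 µg/kg and 473 ± 77.8 CPM in vehicle livers. Its call (log2 fold change −0.73 ± 0.28, edgeR adjusted p = 0.0412) was lost in 8 of 12 alternatives, with adjusted p up to 0.189.

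**Figure D3:**
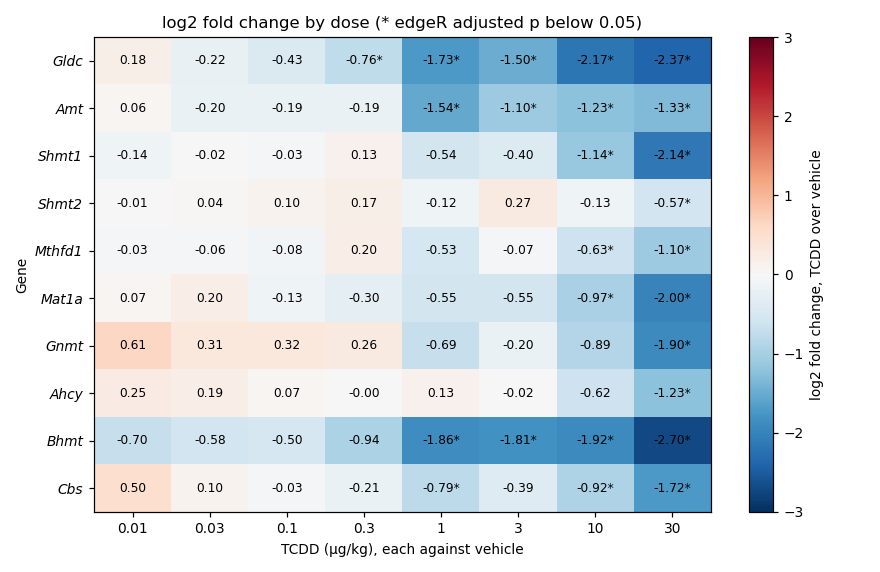
Log2 fold change (colour and printed value, TCDD over vehicle) of each gene (rows) at each dose in µg/kg (columns), from edgeR's fit of all 27 libraries. Asterisks mark an adjusted p below 0.05. All asterisks stand on negative values, with 10 of 10 genes marked at 30 µg/kg and 1 at 0.3 µg/kg.

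Along the rank of the dose, from 0 for vehicle to 8 for 30 µg/kg, 9 of 10 members fell, against 23.3% of all genes. The slopes of the 9 ran from −0.34 log2 units per dose step for Gldc (edgeR, adjusted p = 7.23e-13) to −0.11 for Mthfd1 (edgeR, adjusted p = 0.00244), and Shmt2 had −0.04 (edgeR, adjusted p = 0.219). In the 15 libraries of the first index set and of 30 µg/kg, all 10 fell, against 20.5% of all genes, with slopes from −0.07 to −0.32. The members' median log2 fold change against vehicle was 0.06, 0.01 and −0.06 at 0.01, 0.03 and 0.1 µg/kg, and −1.81 at 30 µg/kg. The livers of 30 µg/kg reuse the vehicle indices, and whether they shared a batch with the first set is not stated. Within the 12 libraries of the second set, slopes ran from −0.03 to −0.38 and 2 fell, against 2.64% of all genes, Gldc (edgeR, adjusted p = 0.00878) and Shmt1 (edgeR, adjusted p = 0.0357). Without the 30 µg/kg group 7 fell, against 16.3% of all genes, Ahcy and Mthfd1 being lost at slopes of −0.06 each.

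The step between the top doses was examined after the group levels had been seen. At 30 against 10 µg/kg, 3 of 10 members were lower, against 1.83% of all genes: Shmt1 (2-fold lower, with an SE of 0.26 on the log2 scale, edgeR adjusted p = 0.0327), Mat1a (log2 fold change −1.03 ± 0.22, edgeR adjusted p = 0.0124) and Cbs (−0.80 ± 0.21, edgeR adjusted p = 0.0408). For these 3 genes no liver at 30 µg/kg reached the lowest liver at 10 µg/kg. The count was 0 without the first or the second 10 µg/kg liver, where 0.103% and 0.508% of all genes were lower, and 0 without the first or the third 30 µg/kg liver, where 0.0975% and 0.111% were. It was 6 without the second 30 µg/kg liver, against 6.82% of all genes. These 2 doses carry indices of different sets, so dose and index set cannot be told apart here either. Gldc and Amt had −0.20 ± 0.18 and −0.10 ± 0.16 over the same step, and neither was called.

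Levels of different genes can be set side by side per kilobase of exon. The length used counts every annotated exonic base, 5758 for Bhmt, whose longest coding transcript has 2490 bases. The order and ranks therefore depend on this choice of length. At 30 µg/kg the order was Gnmt (406 ± 229 CPM per kilobase), Mat1a (322 ± 95.7), Shmt2 (54.2 ± 18.3), Mthfd1 (33.1 ± 7.94), Cbs (29.6 ± 9.69), Ahcy (25.6 ± 8.63), Bhmt (16.6 ± 6.04), Shmt1 (13 ± 6.63), Amt (11.5 ± 1.95) and Gldc (8.49 ± 0.764), each as mean ± SD with n = 3. In vehicle livers it was Gnmt (1514 ± 171), Mat1a (1284 ± 218), Bhmt (108 ± 44.2), Cbs (97.6 ± 6.89), Shmt2 (80.8 ± 4.23), Mthfd1 (70.8 ± 1.65), Ahcy (60 ± 12.1), Shmt1 (57.5 ± 1.28), Gldc (43.8 ± 1.6) and Amt (28.9 ± 2.7). In this order all neighbours at 30 µg/kg had overlapping mean ± SD ranges, apart from the pairs Mat1a and Shmt2, and Amt and Gldc. In vehicle livers the ranges of Gnmt and Mat1a, Bhmt and Cbs, Mthfd1 and Ahcy, and Ahcy and Shmt1 overlapped, and the other neighbours were apart. Bhmt held rank 7 at 30 µg/kg and rank 3 in vehicle livers, and Shmt2 rank 3 at 30 µg/kg and rank 5 in vehicle livers.

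Within the 30 µg/kg group the second liver was the highest in 9 of 10 members. The sum of the 8 hepatocyte markers was 68659, 104062 and 62738 CPM in the 3 livers at 30 µg/kg, highest in the same liver, against 124607, 163083 and 236392 CPM in vehicle livers. Of these 8 markers 6 fell at 30 µg/kg (Alb, Apoa1, Ttr, Cps1, Ass1 and Cyp2e1), against 19.4% of all genes. Hnf4a (−0.20 ± 0.18) and Trf (0.29 ± 0.30) were not called by edgeR.

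Some markers of recruited macrophages, cholangiocytes, stellate cells, neutrophils, B cells and T cells rose at 30 µg/kg, where 18% of all genes were called higher. The sum of 6 recruited macrophage markers was 288, 80.5 and 188 CPM at 30 µg/kg, lowest in the second liver, against 4.24 to 5.38 CPM in vehicle livers, and 5 of the 6 rose. The sum of 6 cholangiocyte markers was 334, 110 and 252 CPM at 30 µg/kg, against 42.2 to 59 CPM in vehicle livers, and 5 of 6 rose. The sum of 6 stellate cell markers was 568, 296 and 472 CPM at 30 µg/kg, against 99.6 to 142 CPM in vehicle livers, and 3 of 6 rose. The sum of 7 neutrophil markers was 51.6, 48.9 and 116 CPM at 30 µg/kg, against 1.2 to 2.61 CPM in vehicle livers, and that of 4 B cell markers 19.9, 19.6 and 12.3 CPM at 30 µg/kg, against 3.71 to 6.12 CPM in vehicle livers. All 7 and all 4 rose. Of 4 T cell markers 1 rose, with sums of 3.3 to 4.45 CPM at 30 µg/kg and 1.4 to 2.42 CPM in vehicle livers. None of these markers was at 0 in all 3 livers of either group.

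Resident Kupffer and endothelial markers overlapped with vehicle in their sums. At 30 µg/kg 19.4% of all genes were called lower. The 6 Kupffer markers summed to 205, 307 and 173 CPM at 30 µg/kg, against 334, 249 and 223 CPM in vehicle livers, and 1 fell, Clec4f (log2 fold change −0.84 ± 0.29, edgeR adjusted p = 0.0266). The 5 endothelial markers summed to 128, 218 and 139 CPM at 30 µg/kg, against 200, 161 and 159 CPM in vehicle livers, and 1 fell, Lyve1 (−0.71 ± 0.22, edgeR adjusted p = 0.0147). Of 5 pancreatic acinar markers, Cpa1, Ctrb1, Prss2 and Pnlip were at 0 in all 3 vehicle livers and Prss2 in all 3 livers at 30 µg/kg. Their sum was 5.8 to 8.45 CPM at 30 µg/kg and 16.6 to 20.7 CPM in vehicle livers. Of the 2 that passed the count filter, Cela1 fell (−1.53 ± 0.19, edgeR adjusted p = 5.74e-07) and Ctrb1 rose. In whole liver, fewer hepatocytes and less of a transcript per hepatocyte cannot be told apart, and the part of cell makeup in the members' values was not tested.

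At 10 µg/kg the third liver was the lowest of its group in 7 of 10 members and the second the highest in 5. The third also had the highest sum of cholangiocyte markers, with 64.9, 67 and 177 CPM in the 3 livers, and of recruited macrophage markers, with 30.8, 31.8 and 79.7 CPM, while the hepatocyte sum was 105966, 135321 and 129531 CPM. At 10 µg/kg 11.3% of all genes were called higher and 11.2% lower. Of recruited macrophage markers 4 of 6 rose, of stellate cell markers 3 of 6, of neutrophil markers 3 of 7 and of B cell markers 2 of 4. Of T cell markers 1 of 4 rose, and of endothelial markers 1 of 5. Of 6 cholangiocyte markers 1 rose and 1 fell, and 2 of 8 hepatocyte markers fell. What part these cell markers had in the members' values was not tested.

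At 1 µg/kg the first liver was the lowest of its group in 7 of 10 members and the second the highest in 9. The sum of 7 neutrophil markers was 1091, 5 and 182 CPM in the 3 livers at 1 µg/kg, against 1.2 to 2.61 CPM in vehicle livers, and the hepatocyte sum was 93763, 142396 and 121900 CPM at 1 µg/kg. At 1 µg/kg all 7 neutrophil, all 6 Kupffer cell and 5 of 6 recruited macrophage markers rose, against 11.1% of all genes. The recruited macrophage sum was 74, 8.11 and 37.5 CPM in the 3 livers, against 4.24 to 5.38 CPM in vehicle livers. Of stellate cell markers 1 of 6 rose, and of endothelial markers 1 of 5. Of hepatocyte markers 1 of 8 fell and of cholangiocyte markers 1 of 6, against 8.21% of all genes. Without the first 1 µg/kg liver, 4 members were called lower at 1 µg/kg, against 4.79% of all genes. The part of these cell markers in the members' values was not tested.

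Beyond the 10 genes, 55 further genes of one-carbon, folate, methionine, choline and sulfur metabolism were listed, and 53 passed the count filter, all but Phgdh and Aldh1l2. Of these, 25 were lower at 30 µg/kg, against 19.4% of all genes, 6 were higher, against 18% of all genes, and 22 were not called. Their median log2 fold change was −0.35, where that of the 10 members was −1.81. The wider list had 6 lower and 3 higher genes at 1 µg/kg, against 8.21% and 11.1% of all genes, 3 lower and 3 higher at 3 µg/kg, against 4.89% and 5.17%, and 13 lower and 7 higher at 10 µg/kg, against 11.2% and 11.3%. EdgeR called none of them at 0.3 µg/kg or at the 3 doses below it, where 2, 1, 2 and 5 of these genes, from the lowest dose up, had an unadjusted p below 0.05, against 4.79%, 3.13%, 5.07% and 10.1% of all genes. Over the main fit and the alternatives, the count of lower genes at 30 µg/kg ran from 17 to 26, against 10.4% to 19.7% of all genes. That of higher genes ran from 3 to 8. It was 3 without the third 30 µg/kg liver, where 2425 of all 15378 genes tested were called higher.

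Of 8 genes of sulfur amino acid breakdown, 7 were lower and 1 higher at 30 µg/kg, against 19.4% and 18% of all genes. Suox, the sulfite oxidase, measured 34.1, 69.9 and 37.8 CPM at 30 µg/kg, against 202, 191 and 191 CPM in vehicle livers (log2 fold change −2.04 ± 0.22, edgeR adjusted p = 5.72e-08). Ethe1, which oxidises persulfides in mitochondria, had −2.01 ± 0.38 (edgeR, adjusted p = 0.000305) and Mpst, a sulfurtransferase, −1.32 ± 0.23 (edgeR, adjusted p = 5.85e-05). Gclc, the catalytic subunit for the first step of glutathione synthesis, was the higher one (0.83 ± 0.26, edgeR adjusted p = 0.0144).

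Csad, which makes the precursor of taurine, was singled out after its values were seen. It measured 17.9, 16 and 23.1 CPM at 3 µg/kg and 175, 77.7 and 120 CPM at 30 µg/kg, against 330, 212 and 251 CPM in vehicle livers. All these livers were below vehicle. The log2 fold change was −3.79 ± 0.39 at 3 µg/kg (edgeR, adjusted p = 4.16e-07) and −1.09 ± 0.35 at 30 µg/kg (edgeR, adjusted p = 0.0175). The call at 30 µg/kg was lost without the first vehicle liver or without the second or the third 30 µg/kg liver, with adjusted p up to 0.0836.

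Of 6 SAM-using methyltransferases, 4 were lower at 30 µg/kg, against 19.4% of all genes. Inmt, an amine N-methyltransferase, measured 19.6, 129 and 17.5 CPM at 30 µg/kg, against 525, 559 and 647 CPM in vehicle livers (log2 fold change −3.37 ± 0.57, edgeR adjusted p = 9.04e-05). Its second 30 µg/kg liver was the highest, as in 9 of 10 members. Gamt, the last enzyme of creatine synthesis, had −1.76 ± 0.31 (edgeR, adjusted p = 7.93e-05) and As3mt, the arsenite methyltransferase, −1.38 ± 0.17 (edgeR, adjusted p = 4.76e-07). Of 5 choline and betaine genes 2 were lower, against the same share of all genes, Sardh, the sarcosine dehydrogenase that degrades the product of Gnmt (−1.79 ± 0.31, edgeR adjusted p = 5.4e-05), and Pipox, a peroxisomal oxidase that also acts on sarcosine (−1.64 ± 0.19, edgeR adjusted p = 1.69e-07).

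Among 14 tested folate genes 4 were higher and 5 lower at 30 µg/kg, against 18% and 19.4% of all genes. Beside Mthfd2 and Mthfd1l, Mthfd2l, another mitochondrial dehydrogenase, was higher (1.59 ± 0.46, edgeR adjusted p = 0.00753), at 0.966, 0.883 and 0.851 CPM against 0.336, 0.261 and 0.281 CPM in vehicle livers. Fpgs, which adds the glutamate tail that keeps folate in the cell, was lower from 1 µg/kg up and had −1.18 ± 0.22 at 30 µg/kg (edgeR, adjusted p = 0.000158). Of 6 tested glycine and serine genes 3 were lower and 1 higher, against 19.4% and 18%. Psat1, of serine synthesis, was the higher one, at 2.31, 0.807 and 4.63 CPM at 30 µg/kg against 0.41, 0.314 and 0.361 CPM in vehicle livers (2.78 ± 0.65, edgeR adjusted p = 0.00158). Sds, the serine dehydratase, was lower (−1.64 ± 0.46, edgeR adjusted p = 0.0082), a call lost with the 6 libraries alone and without the first or the third 30 µg/kg liver, and 29.6% of its exonic bases lie opposite another gene. Glyat, which conjugates glycine, was lower by a smaller amount (−0.69 ± 0.16, edgeR adjusted p = 0.00153).

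In methionine salvage and polyamine synthesis 2 of 6 genes were lower at 30 µg/kg, against 19.4% of all genes, Apip (−0.82 ± 0.17, edgeR adjusted p = 0.000349) and Adi1 (−0.44 ± 0.15, edgeR adjusted p = 0.0259), both of the salvage route. The call of Adi1 was lost in 9 of 12 alternatives.

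**Figure D4:**
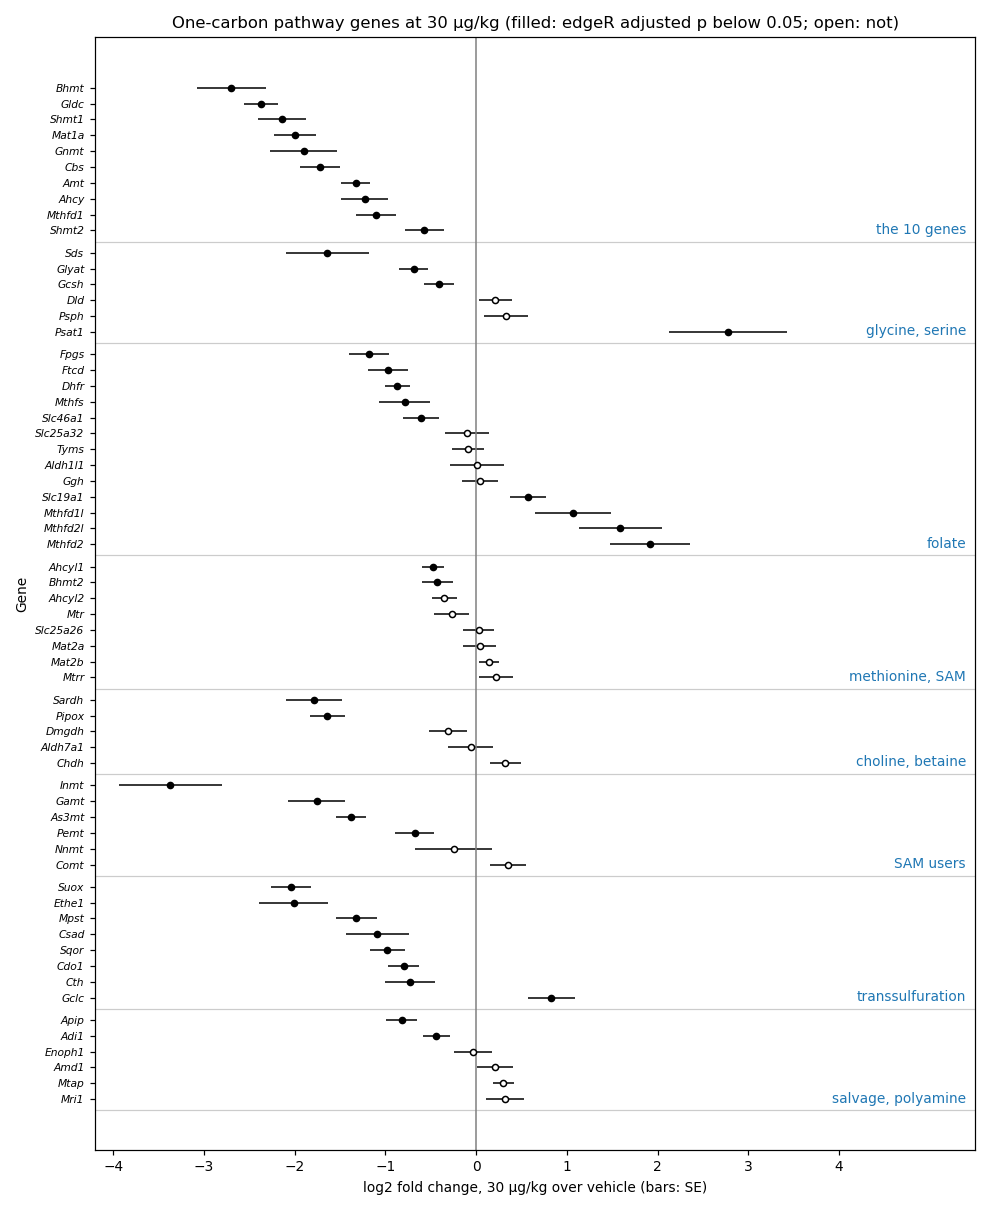
Log2 fold change at 30 µg/kg over vehicle (horizontal axis) for the 10 genes and the tested genes of the wider list but 1 (rows, grouped by sublist and sorted by value), with bars for the SE. Filled points have an edgeR adjusted p below 0.05 and open points do not. The 10 genes all lie left of 0, while the folate sublist holds 4 filled points on the right.

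The genes whose profile over the 26 deeper libraries was most like that of a member were found by Pearson's r of log2 CPM among 12840 genes, as a description in which dose and livers are shared by all points. Gldc was closest to Stra6l (r = 0.98), Dapk1 (0.97) and Celsr1 (0.97), and Amt to Akap1 (0.95), Hsd3b7 (0.94) and Neil1 (0.94). Shmt1 was closest to Ndrg2, Maob and Slc29a1 (0.98 each), Mthfd1 to Slc29a1, Sardh and Slco2b1 (0.96 each), and Shmt2 to Bckdha (0.93), Mocs1 (0.92) and Gpt (0.92). Mat1a was closest to Gc (0.97), Kynu (0.96) and Enpep (0.96), Gnmt to Cyp4f15 (0.97), Gls2 (0.96) and Hgd (0.96), and Ahcy to Hpd, Tprkb and Qdpr (0.92 each). Bhmt was closest to Hacl1 (0.96), Fam198a (0.93) and Acsl1 (0.92), and Cbs to Serpinf2 (0.98), Gstm7 (0.97) and Col18a1 (0.96). No member was among the 3 closest genes of another. Over the 45 pairs of members r ran from 0.36 to 0.94 with a median of 0.80.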

How the data were processed

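The authors deposited integer counts of reads for each gene. FastQC 0.11.2, cutadapt 1.4.1, TopHat 1.4.1, SAMtools 0.1.19 and HTSeq 0.6.1 were used with GRCm38, per the submitters' processing notes. For strand and annotation release, nothing is given in the sources used here. A library lists 41388 identifiers and 5 summary lines, which were left out. Of reads on genes, on no gene or ambiguous, those on no gene were 5.62% to 11.9% and the ambiguous ones 1.79% to 3.49%.

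Counts were tested with edgeR 4.0.16 in R 4.3.3. Genes kept by filterByExpr (minimum of 10 counts) numbered 15121, libraries were scaled by TMM, and all 27 libraries entered 1 quasi-likelihood fit, robust, with a mean per group. Each dose was set against vehicle, a second model took the dose rank as a number, and 30 was set against 10 µg/kg. P-values were adjusted by Benjamini-Hochberg over all genes tested and called below 0.05. CPM are TMM-scaled, and per-kilobase values use the exon length in the GENCODE annotation of GRCm38. Alternatives were RLE scaling, DESeq2 1.42.0, no filter, a replicate block, the shallow library left out, the 6 libraries compared alone, each library left out, and index sets apart. Similar transcripts were sought with blastn 2.17.0+ at 95% identity over at least 50 bases.

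The 10 members and all lists were chosen with earlier results of these data known. From the wider list the text names up to 3 called genes per sublist with the largest change at 30 µg/kg, the isozymes or partners of members, and, after their values were seen, Gclc and Csad. A gene of the wider list is counted in its totals and not reported here. The replicates are described as biological, and the source of each library beyond that is not stated.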

Additional observations from a re-analysis of the deposited data

How the results depend on the processing

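Over 1430 values of the 10 members under an alternative, 1370 kept their side of the threshold, 49 were no longer called and 11 became called, and no called value changed sign. At 0.3 µg/kg the count of members called was 1, against 0.562% of all genes called lower. It was 0 with RLE scaling, against 0.496%, and 0 with the 6 libraries alone, against 0.336%. When each library was left out it was 0 to 1, against 0.0963% to 0.726%. At 30 against 10 µg/kg the count was 3, against 1.83% of all genes called lower. With the 6 libraries alone it was 0, where 0% of all genes were called lower. When each library was left out it was 0 to 6, against 0.0975% to 6.82%. Along the dose rank the count was 9, against 23.3%, and 2 in the index set of 0.3 to 10 µg/kg alone, against 2.64%. The other counts stayed within 1.5 times. At 30 µg/kg the median log2 fold change over all genes was 0.10 with RLE scaling and 0.13 with DESeq2, against −0.01 with TMM, and all 10 members remained negative with RLE. The share of calls that were higher was 59.3% with RLE and 48.1% with TMM at 30 µg/kg, 61.6% and 50.4% at 10 µg/kg, and 61.6% and 50% along the dose rank. The causes of these shifts were not tested.

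Libraries of the same replicate number had deviations correlated at −0.335 to 0.337, and at 0 of 8 doses did all 3 pairs exceed 0.1, so the numbers were not taken to pair livers. With a replicate block 0, 0, 0, 1, 4, 3, 8 and 10 members were called from the lowest dose to the highest. Of all genes 0%, 0.00661%, 0.0463%, 0.595%, 8%, 4.85%, 11.2% and 19.4% were called lower at these doses. The block gave 9 members along the dose rank, against 23.1% of all genes, and 4 at 30 against 10 µg/kg, against 2.18%. Low-count genes such as Mthfd1l, Mthfd2 and Psat1 rest on few reads, most of all in the library of 434011 counts.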
